A study of Mus musculus with 3 samples.

Results

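The genes examined here encode the receptors of natural killer (NK) cells and the proteins with which cytotoxic lymphocytes kill, measured in the mouse utero-tubular junction, the narrow passage between uterus and oviduct. Members were chosen by symbol alone: every non-control probe named for a killer-cell lectin-like receptor of the families Klra to Klrk, for a granzyme, or for Prf1, Nkg7, Ncr1, Cd160, Cd244, Tyrobp or Hcst. The rule gave 64 of the 41126 probes with a value on all 3 arrays, and 48 of 27641 genes. These were 12 effectors (10 granzymes, Prf1 and Nkg7), 19 Ly49 receptors (the Klra genes), 12 other lectin-like receptors, 3 immunoglobulin-like receptors and 2 adaptors. Total RNA of adult females of the outbred CD-1 stock, all in estrus, was labelled with Cy3 and hybridised to single-colour Agilent arrays. The not mated group had no male, the vasectomized-mated group was mated with a vasectomized male, whose ejaculate carries no sperm, and the normal-mated group was mated with an intact male. Each group was 1 pool of 10 females on 1 array, so no spread between animals, standard error or p-value can be given, and every difference below compares pools. How long after mating the tissue was taken is not stated in the sources used here.

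NK cells are innate lymphocytes that release granules onto a target cell: perforin, encoded by Prf1, opens the membrane, and the granzymes, a family of serine proteases, enter and cleave proteins inside. Whether a granule is released depends on paired families of inhibitory and activating receptors, many of which read MHC class I molecules, and the activating ones signal through adaptors such as Tyrobp and Hcst. NK cells are a resident population of the uterus and are best known there for their increase in pregnancy, while T cells share perforin, Nkg7 and several granzymes.

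Array signals were brought to a common level by their 75th percentile, and values are given as scaled signal in units of the not mated array. Before scaling, that percentile was 874 on the not mated, 295 on the vasectomized-mated and 708 on the normal-mated array, and between 65.9% and 70.7% of spots were well above background. The mean log2 signal of the spike-in probes, which are added with known RNA, was 11.53 on the vasectomized-mated array against 10.44 and 10.60 on the not mated and normal-mated arrays. Scaling by spike-ins in place of the percentile therefore moved the log2 ratio of every gene detected on both arrays by a constant. This was -2.66 for vasectomized-mated over not mated, 2.20 for normal-mated over vasectomized-mated and -0.46 for normal-mated over not mated. Epithelial genes of the labelled tissue were all well above background (8 of 8 on every array). The error that the scanner software gives for a member well above background had a median of 10.4% to 10.6% of the signal by array and reached 21.5%.

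Of the 48 member genes, 25 were well above background on all 3 arrays, 7 on 2, 4 on 1 and 12 on none. The 12 that were not detected on any array were Cd160, Gzme, Gzmk, Gzmn, Klra5, Klra12, Klra18, Klra19, Klrc2, Klrc3, Klre1 and Klrk1, the last of which encodes the activating receptor NKG2D. A gene is represented by its brightest probe. By array, 31 member genes were detected in the not mated, 35 in the vasectomized-mated and 27 in the normal-mated pool. Levels of different genes cannot be set against each other on such arrays, so each gene is followed across the pools.

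The granzymes fall at a few places in the genome. The probes of 7 of them (Gzmb, Gzmc, Gzmd, Gzme, Gzmf, Gzmg and Gzmn) lie within chr14:50986691-51126491 of the build named in the array headers, mm7, and those of 27 lectin-like receptor genes within chr6:128641736-131316111. Most of these genes are relatives of their neighbours, and a probe of 1 copy may bind RNA of another. Among the 24 Ly49 probes, the array design lists several RefSeq mRNAs for 10, against 3 of the 40 other member probes, so a single Ly49 value may stand for more than 1 gene.

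The upstream sequences of the effectors are shown because these genes had the lowest median ratio of the role groups after normal mating. Each is the 250 bases before the annotated RefSeq start in the mouse build GRCm38.p6, written 5′ to 3′ along the gene, and the capitals mark matches on either strand to 4 motifs bound by factors of lymphocytes: AGGTGT (T-box), TGTGGT (Runx), TTCNNNGAA (STAT) and TGANTCA (AP-1). A match on the other strand reads ACACCT or ACCACA for the T-box and Runx letters.
Gzma (chr13:113100982-113101231, minus strand): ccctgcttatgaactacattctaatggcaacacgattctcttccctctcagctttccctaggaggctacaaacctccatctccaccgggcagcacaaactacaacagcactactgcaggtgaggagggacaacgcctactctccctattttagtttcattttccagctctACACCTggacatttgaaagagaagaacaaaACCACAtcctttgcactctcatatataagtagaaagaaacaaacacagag
Gzmb (chr14:56262335-56262584, minus strand): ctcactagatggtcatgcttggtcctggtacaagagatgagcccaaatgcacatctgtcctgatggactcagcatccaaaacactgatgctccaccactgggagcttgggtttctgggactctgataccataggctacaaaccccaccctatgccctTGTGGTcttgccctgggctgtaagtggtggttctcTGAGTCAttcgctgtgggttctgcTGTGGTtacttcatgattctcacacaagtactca
Gzmc (chr14:56234658-56234907, minus strand): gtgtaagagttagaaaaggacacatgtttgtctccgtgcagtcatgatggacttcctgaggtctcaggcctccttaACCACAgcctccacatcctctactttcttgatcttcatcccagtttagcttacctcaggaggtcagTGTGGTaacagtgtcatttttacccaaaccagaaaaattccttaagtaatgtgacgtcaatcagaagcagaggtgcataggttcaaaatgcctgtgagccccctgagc
Gzmd (chr14:56132594-56132843, minus strand): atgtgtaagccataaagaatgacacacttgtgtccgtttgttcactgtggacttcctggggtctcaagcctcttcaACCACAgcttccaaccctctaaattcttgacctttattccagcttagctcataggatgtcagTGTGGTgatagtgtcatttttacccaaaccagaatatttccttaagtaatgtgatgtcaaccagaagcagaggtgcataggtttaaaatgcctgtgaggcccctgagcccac
Prf1 (chr10:61297586-61297835, plus strand): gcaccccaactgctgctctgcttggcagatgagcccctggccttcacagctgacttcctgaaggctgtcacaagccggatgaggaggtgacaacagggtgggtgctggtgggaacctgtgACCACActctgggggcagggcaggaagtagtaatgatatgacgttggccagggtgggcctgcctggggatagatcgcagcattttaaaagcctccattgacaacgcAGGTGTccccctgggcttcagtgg
Nkg7 (chr7:43436888-43437137, plus strand): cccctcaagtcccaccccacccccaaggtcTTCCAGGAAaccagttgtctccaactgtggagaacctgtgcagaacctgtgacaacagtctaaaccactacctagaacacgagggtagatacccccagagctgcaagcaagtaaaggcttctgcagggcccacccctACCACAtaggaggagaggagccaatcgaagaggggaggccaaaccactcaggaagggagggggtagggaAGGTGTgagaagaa

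The T-box letters were found in 4 of the 12 effector windows (Gzma, Gzmk, Nkg7 and Prf1), in 0 of the 22 windows of the other members matched to RefSeq, and in 12.0% of the 27025 genes with a window. The Runx letters were in 10 of 12 effector windows, 9 of 22 others and 14.2% of all. The STAT letters were in 2 of 12, 3 of 22 and 7.18%, and the AP-1 letters in 1 of 12, 1 of 22 and 6.87%. No matches overlapped in the effector windows shown. In Gzma the T-box match began 80 bases before the start, in Prf1 24 and in Nkg7 14. On chromosome 14, the windows of Gzmc, Gzmd, Gzme, Gzmf and Gzmg are close copies of each other, so their Runx matches are not independent. In global alignments with gaps, the windows of Gzmd and Gzme were identical at 95.2% of bases and Gzmf and Gzmg at 85.2%. Gzmc and Gzmd were identical at 82.4% and Gzmc and Gzmf at 77.2%. The windows of Gzmb and Gzmn were less alike, at 54.0% and 55.6% with that of Gzmc. These matches describe the letters only.

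**Figure D1:**
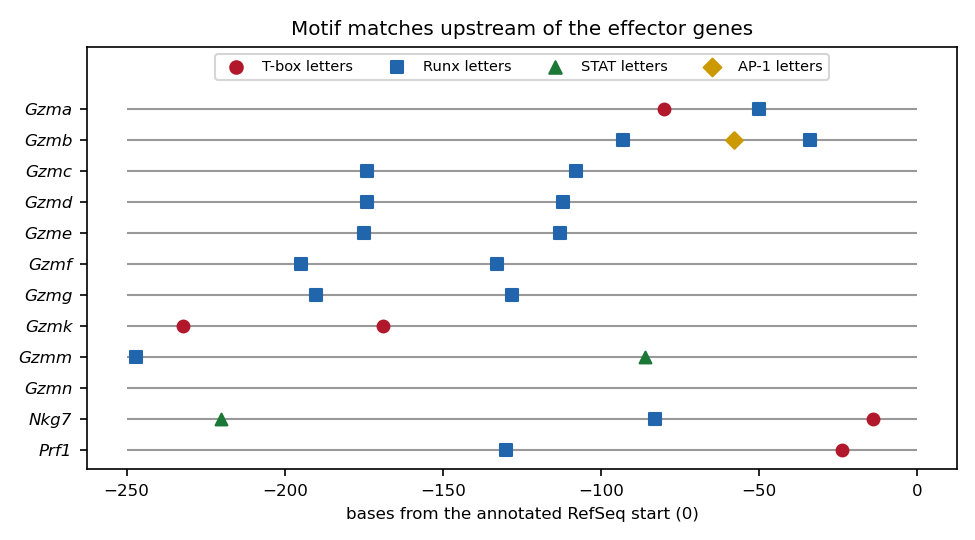
Motif matches in the 250 bases upstream of the 12 effector genes (rows), with distance from the annotated start in bases on the horizontal axis and 1 symbol per match to the T-box, Runx, STAT or AP-1 letters. Runx letters are present in 10 of the 12 windows, in pairs in Gzmb to Gzmg, and T-box letters in Gzma, Gzmk, Nkg7 and Prf1.

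After normal mating the killing machinery was lower than in not mated females. Of 9 effector genes that could be compared, 8 were lower by 2-fold or more and 0 higher (median log2 ratio -2.75), where 13.2% of all 19304 genes compared were at least 2-fold lower, 9.81% at least 2-fold higher and the median was -0.05. In a whole tissue, fewer cells of a type and less RNA per cell cannot be told apart. With normexp background correction, run with an offset of 50 that raises dim signals, 5 of the 9 effectors were at least 2-fold lower (Gzma, Gzmb, Gzmc, Gzmd and Nkg7, median -1.24).

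Gzmb, the granzyme that cleaves after aspartate and triggers apoptosis through caspases, had scaled signals of 377 in the not mated, 65.6 in the vasectomized-mated and 34.2 in the normal-mated pool. Both mated pools were below the not mated pool, by 5.75 times after vasectomized and 11.0 times after normal mating (log2 -2.52 and -3.46). Prf1, the pore-forming protein, gave 107, 36.4 and 17.0, the same order, which is 2.93 and 6.29 times below not mated. With normexp correction both Prf1 ratios were within 2-fold, at 0.24 in place of log2 -1.55 for vasectomized and -0.92 in place of -2.65 for normal mating.

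Nkg7, a granule membrane protein needed for granule release, gave 533, 155 and 63.2 with its brightest probe, 3.45 times lower after vasectomized and 8.44 times lower after normal mating. A dimmer Nkg7 probe, at 224 in not mated and 21.3 in normal-mated females, gave a log2 ratio of -3.40, and was not above background in the vasectomized-mated pool. Gzmc, a neighbour of Gzmb in the chromosome 14 cluster, had 171, 42.9 and 16.7, again highest in the not mated pool, with folds of 3.99 and 10.3.

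Gzmd, a close relative of Gzmc, had 187, 23.03 and 27.7, so that both mated pools were low (8.12 and 6.75 times) and near each other (log2 0.27 between them). Its other probe was above background in not mated females only, where a ratio is a bound: it compares the detected value with the lowest signal that counts as detected on the other array, or with the dim probe itself where that is higher. By that rule the second Gzmd probe was at least 5.15 times lower after normal mating. Gzmf (64.3, 39.3 and 3.66) was detected in the not mated and vasectomized-mated pools and was at least 7.91 times lower after normal mating, and Gzmg (23.5, 3.79 and 1.73) was detected in not mated females alone, with a bound of at least 2.88 times.

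Gzma, the tryptase-like granzyme, departed from this order. Its scaled signal was 272 in the not mated, 399 in the vasectomized-mated and 66.8 in the normal-mated pool, so it was low after normal mating only (4.07 times) and within 2-fold of not mated after vasectomized mating (log2 0.56, or -2.10 with spike-in scaling). Gzmm, a granzyme of NK and other innate lymphocytes, was within 2-fold in all comparisons, at 64.6, 91.8 and 51.7 (with spike-in scaling log2 -2.15 after vasectomized mating), and was the 1 effector not lower by 2-fold after normal mating (log2 -0.32).

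**Figure D2:**
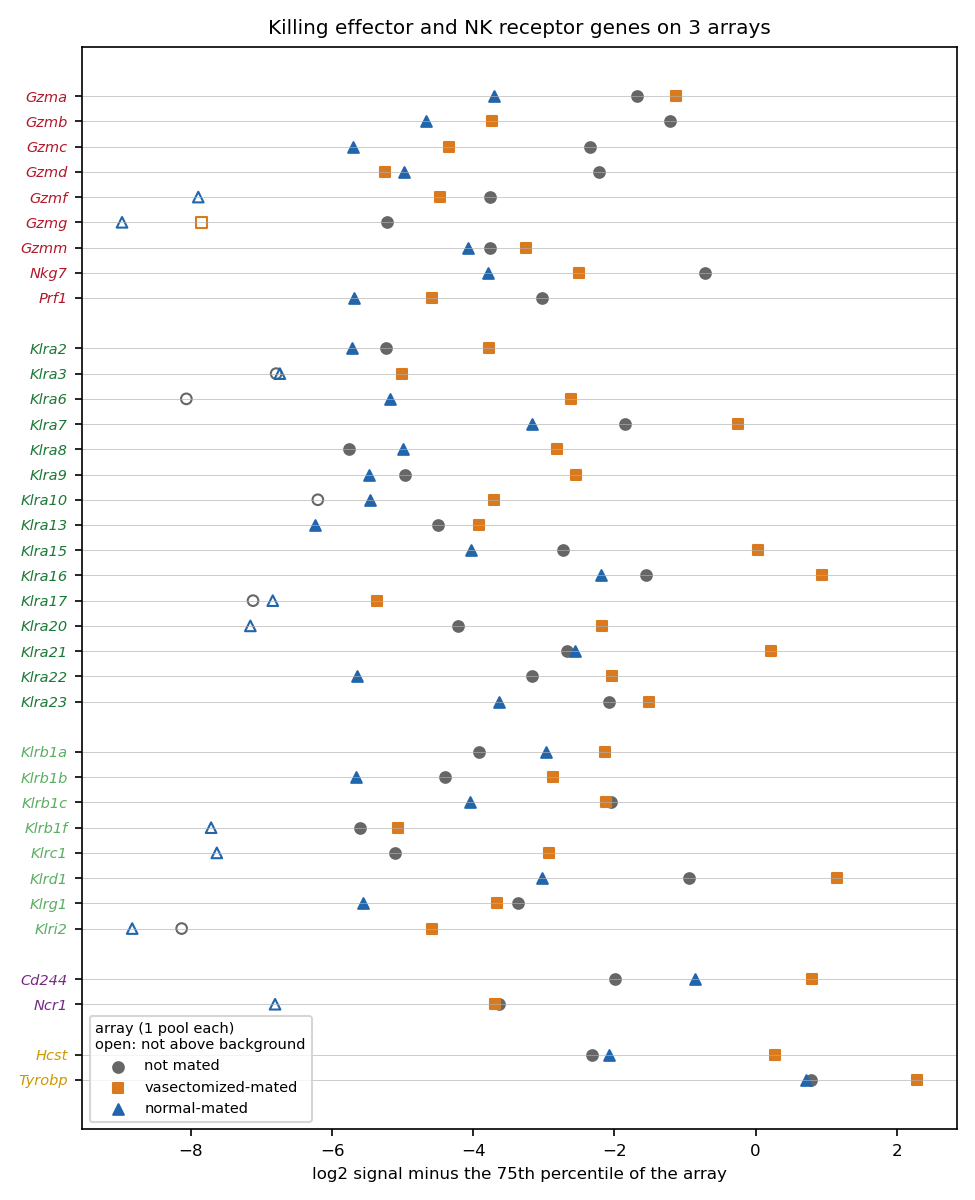
Level of each member gene detected on at least 1 array (rows), on the log2 scale relative to the array's 75th percentile, for the not mated (circle), vasectomized-mated (square) and normal-mated (triangle) pool, 1 array each, with open symbols for values not well above background. Levels compare within a row only: for the effectors at the top the not mated pool is the highest in 7 of 9 rows, and for the Ly49 receptors below them the vasectomized-mated pool is the highest in all 15 with this scaling, an order that spike-in scaling changes.

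After vasectomized mating most receptors were higher than in not mated females, while no effector was and 5 were lower. Of 36 member genes compared with the not mated pool, 20 were above it by 2-fold or more and 5 below it by as much (median 1.29), where 25.8% of 19306 genes were higher, 16.5% lower and the median was 0.18. All 5 lower genes were effectors (Gzmb, Gzmc, Gzmd, Nkg7 and Prf1), and the other 4 effectors compared were within 2-fold. The 20 higher genes were 12 of 15 Ly49 receptors, 5 of 8 other lectin-like receptors, Cd244 and both adaptors, a direction that spike-in scaling turns. With it, 0 members were higher and 20 lower, with a median of -1.36, while the median of all genes compared was -2.54. With normexp correction, 1 effector was still at least 2-fold lower and the effector median was -0.01.

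The Ly49 receptors, lectin-like molecules that bind MHC class I, were measured by 15 detected genes. All 15 were highest in the vasectomized-mated pool. Klra15 had scaled signals of 131 in the not mated, 894 in the vasectomized-mated and 53.5 in the normal-mated pool, which is 6.81 times higher after vasectomized and 2.45 times lower after normal mating. Klra16 gave 298, 1676 and 191, likewise high in the vasectomized-mated pool (5.62 times) and within 2-fold after normal mating. Its other probe, at 29.0, 146 and 30.4, gave log2 ratios of 2.33 and 0.07 where the first gave 2.49 and -0.65.

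Klra21 stood at 138, 1017 and 148, so that only the vasectomized-mated pool was set apart, by 7.39 times. Klra7, an inhibitory receptor in the strains where it has been studied, had 243, 736 and 97.4, with the normal-mated pool 2.49 times below not mated. Klra8, which encodes the activating receptor for a cytomegalovirus protein in some strains, had 16.1, 125 and 27.4, highest in the vasectomized-mated pool by 7.73 times and within 2-fold after normal mating.

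In other Ly49 genes the normal-mated pool was the low one. Klra22 gave 97.1, 213 and 17.5 and Klra23 gave 207, 306 and 70.3, which is 5.56 and 2.95 times below not mated after normal mating. Klra20 gave 47.0, 194 and 6.11, the last not above background, for a bound of at least 5.79 times. Klra13 (38.6, 57.9 and 11.5) was 3.36 times below. Klra2 (23.2, 63.7 and 16.7) and Klra9 (27.9, 149 and 19.6) were within 2-fold after normal mating.

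Klra6 and Klra10 were not detected in the not mated pool: Klra6 gave 142 and 24.1 and Klra10 66.9 and 19.7 in the vasectomized- and normal-mated pools. Klra3 and Klra17 were detected in the vasectomized-mated pool alone, at 27.2 and 21.2. Across the family, normal mating left 6 of 13 genes compared at least 2-fold below not mated and 0 at least 2-fold above it (median -0.65). Among all genes compared, 13.2% were at least 2-fold lower and 9.81% at least 2-fold higher (median -0.05). The Ly49 genes above not mated by less than 2-fold were Klra6, Klra8, Klra10 and Klra21. Of these, quantile and median scaling put 1 and cyclic loess 2 past 2-fold. With normexp correction 0 of 13 Ly49 genes were 2-fold lower. Ly49 gene content differs between mouse strains, and CD-1 is an outbred stock, so a probe may have no exact target in these animals.

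Among the other lectin-like receptors, 6 of 7 genes compared were at least 2-fold lower after normal mating (median -1.64), beside 13.2% of all genes. With normexp correction 2 of 7 were, Klrd1 and Klrb1c. Klrd1, the shared chain of the receptors that read the MHC class Ib molecule Qa-1, had scaled signals of 453, 1944 and 108, so that it was 4.29 times higher after vasectomized mating and 4.21 times lower after normal mating. Klrc1, its inhibitory partner chain, ran in parallel at 25.4, 114 and 4.40, the last not above background, with folds of 4.50 higher and at least 3.12 lower. Those Klrc1 values come from a probe for which the array design lists no RefSeq mRNA. The other Klrc1 probe, for which it lists 1, was not above background on any array (5.27, 6.52 and 1.83). The vasectomized-mated pool was the high one and the normal-mated pool the low one in both chains.

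Klrb1c, the receptor used as the NK1.1 marker in some strains, gave 212, 201 and 52.8, with only the normal-mated pool low, by 4.02 times. Klrg1, an inhibitory receptor for cadherins found on mature NK and T cells, did the same at 84.3, 68.6 and 18.5, a fold of 4.57. With spike-in scaling the vasectomized-mated pool was also below not mated, by log2 -2.73 for Klrb1c and -2.95 for Klrg1. Klrb1b, an inhibitory receptor of the same cluster as Klrb1c, gave 41.3, 119 and 17.2, highest after vasectomized and lowest after normal mating.

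Klrb1a alone among the lectin-like receptors compared was not lower after normal mating: it had 57.5, 200 and 112, both mated pools above not mated, though by 1.94 times and so within 2-fold for normal mating. Klrb1f (17.9, 26.1 and 4.16) was not above background after normal mating, with a bound of at least 2.21 times. That probe had no match in RefSeq's gene list. The other Klrb1f probe, which had a match, was not above background on any array (2.87, 19.7 and 3.66). Klri2 was detected in the vasectomized-mated pool alone, at 36.5. The dimmer probes of Klrb1c and Klri2 were not above background on any array.

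The immunoglobulin-like receptors diverged. Ncr1, the activating receptor that marks NK and related innate lymphocytes, had scaled signals of 70.1, 67.8 and 7.79. Both the not mated and the vasectomized-mated pool were above background and close to each other (log2 -0.05, or -2.70 with spike-in scaling). The normal-mated pool was not above background, for a bound of at least 8.63 times lower than not mated. With normexp correction that ratio was -0.65 on the log2 scale, within 2-fold. Cd244, a receptor for Cd48 that is also found on other leukocytes, gave 219, 1514 and 483 with its brightest probe, higher after both matings and the 1 member at least 2-fold higher after normal mating (2.20 times, or log2 0.96 with normexp). Another Cd244 probe gave 67.7, 91.0 and 50.3, within 2-fold throughout, so that the probes of this gene differ by over 2-fold in both comparisons with the not mated pool.

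The adaptors were high in the vasectomized-mated pool and nearly level between the others. Tyrobp, which carries the signal of activating receptors in NK cells and also in macrophages and neutrophils, had 1503, 4273 and 1440, close in the not mated and normal-mated pools (log2 -0.06) and 2.84 times higher after vasectomized mating. Hcst, its neighbour on chromosome 7 and the adaptor of NKG2D, had 175, 1053 and 207, higher by 6.01 times after vasectomized and within 2-fold after normal mating. With spike-in scaling the vasectomized-mated ratios were -1.15 for Tyrobp and -0.07 for Hcst.

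**Figure D3:**
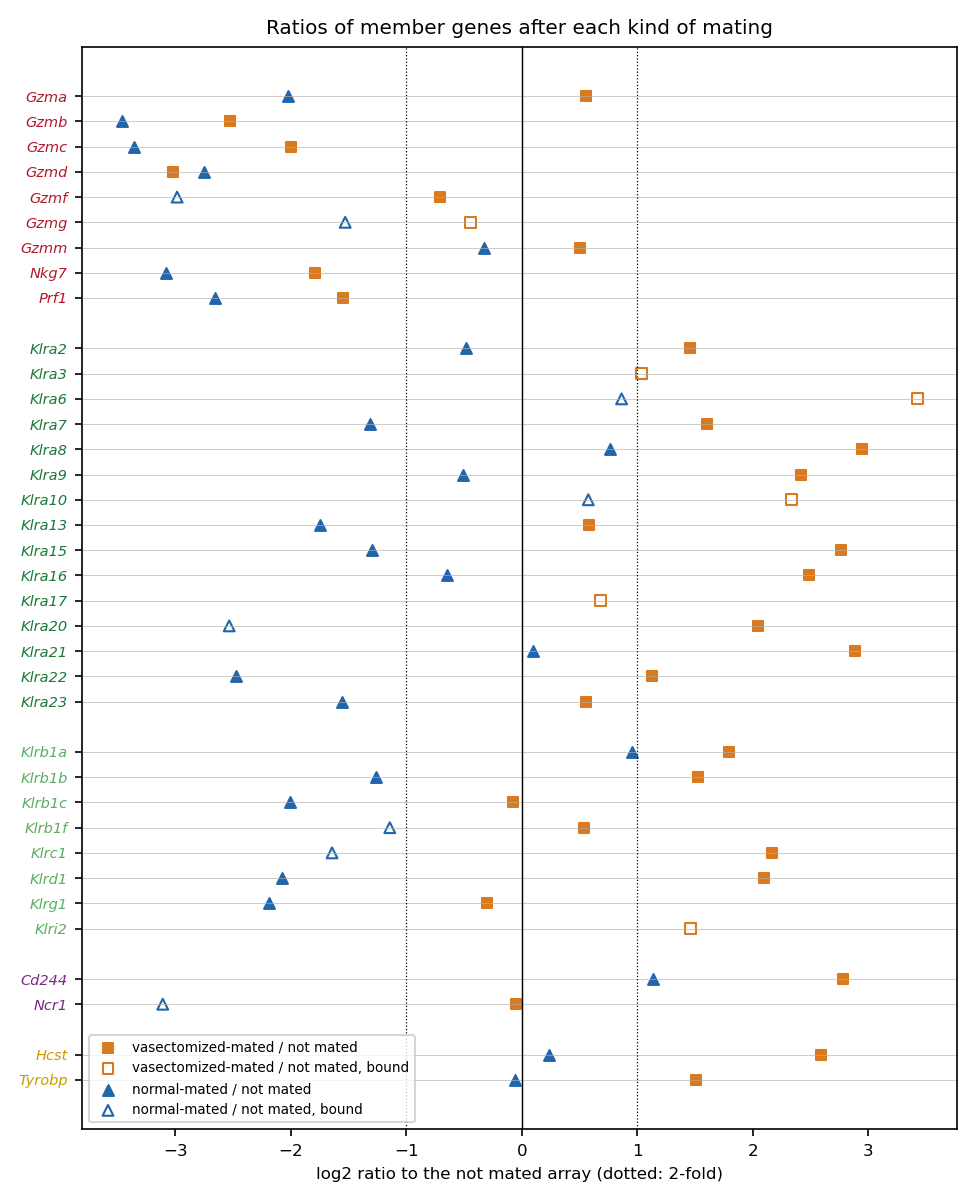
Log2 ratio of each member gene (rows) to the not mated pool after vasectomized (squares) and normal mating (triangles), with open symbols for bounds and dotted lines at 2-fold. The effectors at the top lie left of 0 for normal mating in all 9 rows, while the squares of the Ly49 receptors all lie right of 0 with the 75th percentile scaling and not with spike-in scaling.

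Both mated pools were also set against each other. Of 35 member genes compared, 31 were at least 2-fold lower in the normal-mated than in the vasectomized-mated pool and 0 higher (median -2.16), where 28.0% of 18988 genes were lower, 14.7% higher and the median was -0.27. All 15 Ly49 genes, 7 of 8 other lectin-like receptors, 5 of 8 effectors, both immunoglobulin-like receptors and both adaptors were on the lower side. Klrd1 was 18.1 times, Klra15 16.7 times and Klra16 8.80 times lower. Gzma was 5.97 times lower, while Gzmb (1.91 times) and Gzmd (1.20 times higher) were within 2-fold. With spike-in scaling 5 members were lower and 5 higher and the median was -0.08, while the median of all genes compared was 1.92. The comparisons share arrays, so the values of a gene in them are not separate pieces of evidence.

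**Figure D4:**
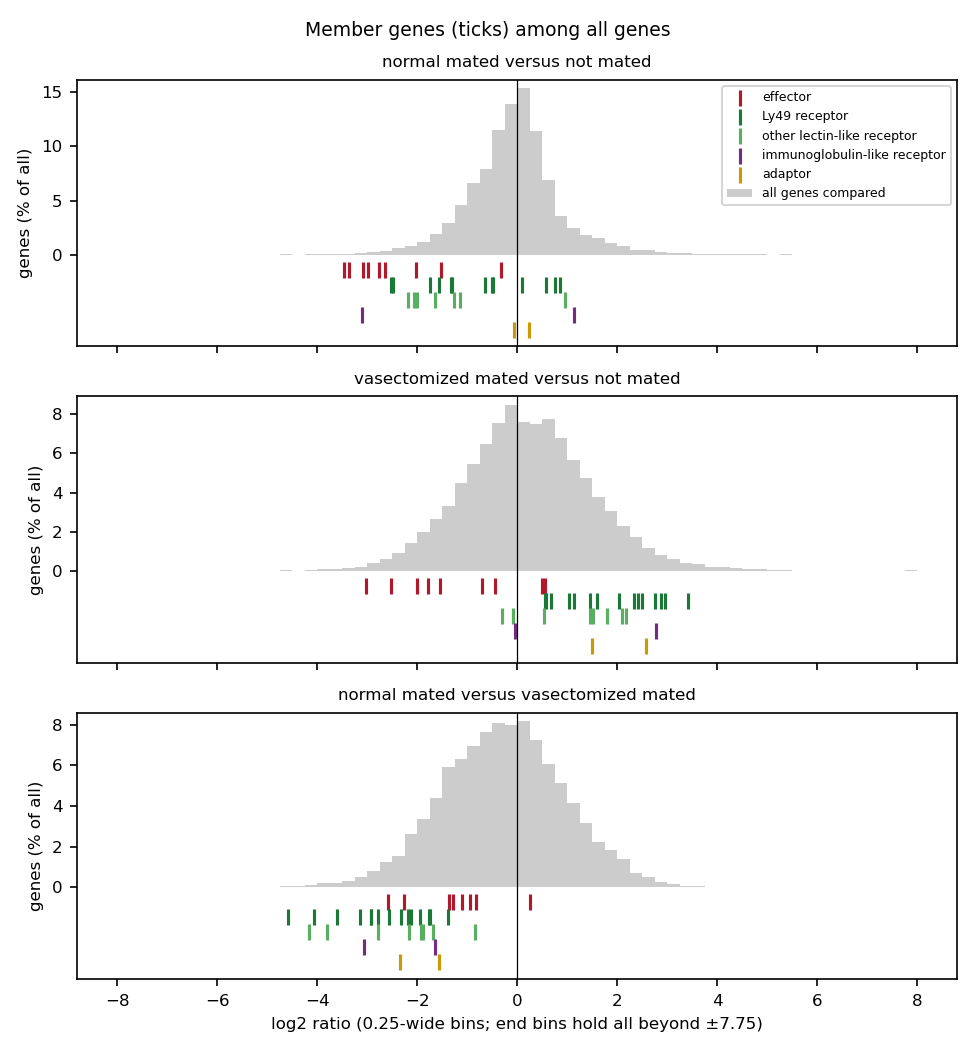
Distribution of log2 ratios over all genes compared (grey, percent of genes per bin) in each of the 3 comparisons, with 1 tick per member gene below, coloured by role. With the 75th percentile scaling, effector ticks lie left of 0 for all 9 genes compared after normal and 7 of 9 after vasectomized mating, while Ly49 ticks lie on both sides of 0 for normal mating and to the right for vasectomized mating.

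A difference between receptors and effectors within an array does not depend on a constant that scales the whole array. It was computed after the values were seen and is a description. Over genes above background on both arrays, the median receptor ratio exceeded the median effector ratio by 1.47 after normal mating (16 receptors and 7 effectors) and by 3.37 after vasectomized mating (20 and 8). It was 1.35 below that of the effectors for normal-mated over vasectomized-mated (18 and 7). After vasectomized mating, 16 of the 20 receptors had a ratio above that of the highest effector, Gzma. With normexp correction the differences were 1.00, 1.48 and -0.46, so the sign of each was kept and the size was not.

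**Figure D5:**
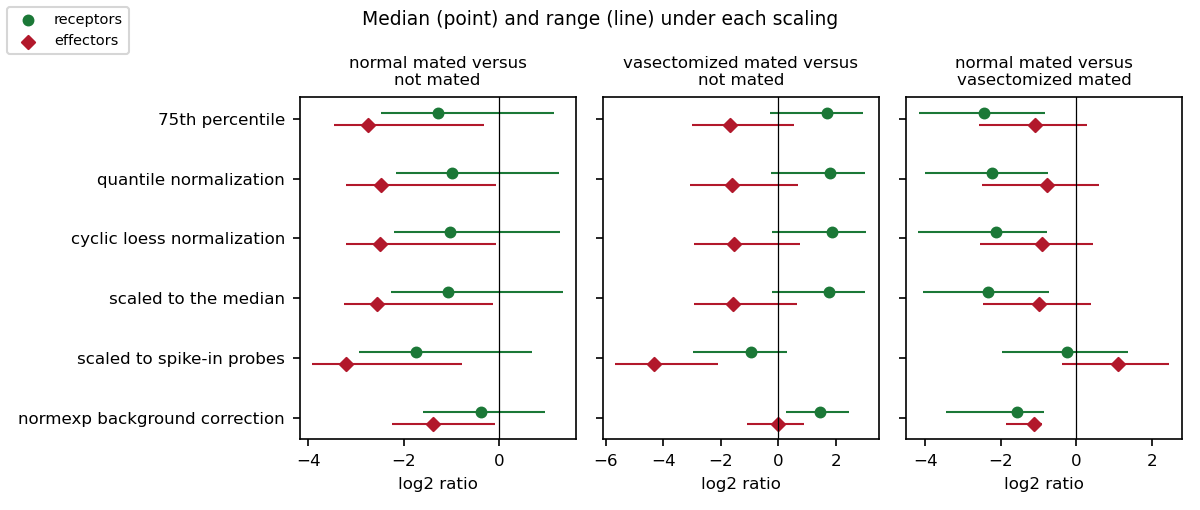
Median (point) and range (line) of the log2 ratios of receptors (circles) and effectors (diamonds) above background on both arrays, under 6 ways of scaling or background correction (rows), for the 3 comparisons (panels). The receptor points lie right of the effector points in every row of the comparisons with the not mated pool, while their side of 0 changes with spike-in scaling for vasectomized mating.

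Other genes of cytotoxic lymphocytes were less uniform than the members. Of 29 such genes compared after normal mating, 12 were at least 2-fold lower and 3 higher (median -0.63), beside 13.2% and 9.81% of all genes. After vasectomized mating 3 of 30 were lower and 12 higher (median 0.69), beside 16.5% and 25.8%. Il2rb, the receptor chain through which IL-15 acts on NK cells, had scaled signals of 615, 648 and 107, and Xcl1, a chemokine of activated NK and T cells, had 120, 115 and 10.6. In both, the normal-mated pool alone was low with the percentile scaling, by 5.76 and 11.3 times. For vasectomized-mated over not mated, the log2 ratios were 0.08 for Il2rb and -0.07 for Xcl1. Spike-in scaling moves such ratios by -2.66, so with it the vasectomized-mated pool was also below not mated. Ctsw, a protease of cytotoxic lymphocytes, followed the effectors instead, at 277, 119 and 50.7. Itga2, an integrin of NK cells and also of epithelium and platelets, went the other way and was at least 14.4 times higher after normal mating.

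Genes that prepare and move granules in many cell types were measured by 12 members of a list of granule exocytosis and granzyme processing. After normal mating 0 of the 12 were at least 2-fold lower and 3 higher (median 0.46), against 13.2% and 9.81% of all genes. After vasectomized mating 1 was lower and 5 higher, against 16.5% and 25.8% of all genes. The lower one was Stxbp2, a partner of syntaxins in granule release, at 1278, 138 and 1566, which is 9.26 times below not mated in the vasectomized-mated pool and was chosen after its values were seen. Ctsc, the dipeptidase that activates granzymes, had 3001, 7173 and 8568, above not mated in both mated pools by 2.39 and 2.85 times. Ctsh (42273, 211554 and 124484) and Stx11 (104, 407 and 284), a membrane fusion protein of granule release, were also higher in both. For vasectomized-mated over not mated, the log2 ratios were 1.26 for Ctsc, 2.32 for Ctsh and 1.97 for Stx11. Spike-in scaling, which moves such ratios by -2.66, turns them negative. In a list of serpins that includes granzyme inhibitors, 2 of 5 compared were higher after normal mating and 0 lower, beside 9.81% and 13.2% of all genes. They were led by Serpina3g (426, 902 and 5222), whose action on granzymes was not tested. Serpinb9, the inhibitor of granzyme B, gave 191, 572 and 210.

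Among the adaptors and kinases downstream of the receptors, 3 of 17 were lower and 0 higher after normal mating, beside 13.2% and 9.81% of all genes. After vasectomized mating 5 were higher and 2 lower, beside 25.8% and 16.5% of all genes. The 3 lower after normal mating were Fyn, a Src family kinase (213, 98.0 and 72.1), Sh2d1a, the adaptor of the Cd244 family (25.0, 30.0 and 8.67), and Sh2d1b1, its relative. The other signalling genes were within 2-fold after normal mating, and the median was -0.02.

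The ligands of the receptors differed among themselves. Of 14 compared after normal mating, 5 were higher and 2 lower (median 0.50), beside 9.81% and 13.2% of all genes. Of 13 compared after vasectomized mating, 7 were higher and 0 lower (median 1.00), beside 25.8% and 16.5%. Of 13 compared between the mated pools, 7 were lower and 2 higher in the normal-mated pool, beside 28.0% and 14.7%. The MHC class I genes H2-K1 (41585, 52012 and 100696), H2-D1 (29435, 22736 and 69891) and H2-T23, which encodes Qa-1 (19315, 14623 and 49394), were each highest in the normal-mated pool, by 2.42, 2.37 and 2.56 times over not mated. Clec2d, the ligand of Klrb1b, had 2061, 18235 and 6265, highest after vasectomized mating with the percentile scaling. Its log2 ratio for normal-mated over vasectomized-mated was -1.54. Spike-in scaling moves that ratio by 2.20 and so turns it positive, which makes the normal-mated pool the highest. Cdh1, a cadherin bound by Klrg1, had 3559, 7128 and 8184, above not mated in both mated pools, and Cdh2, another cadherin, had 64.8, 136 and 23.9, highest after vasectomized and lowest after normal mating. Cd48, the ligand of Cd244, had 135, 164 and 67.5, in the same order as Cdh2. For vasectomized-mated over not mated, the log2 ratios were 3.15 for Clec2d, 1.00 for Cdh1, 1.07 for Cdh2 and 0.28 for Cd48. Spike-in scaling, which moves such ratios by -2.66, turns those of Cdh1, Cdh2 and Cd48 negative and leaves that of Clec2d positive.

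Of 9 cytokines and chemokines that act on NK cells, 4 were higher after normal mating and 0 lower (median 0.90), beside 9.81% and 13.2% of all genes. After vasectomized mating 5 of 8 were higher and 1 lower, beside 25.8% and 16.5%. Ccl3 gave 16.1, 102 and 195 and Ccl4 gave 101, 1137 and 657, both above not mated in each mated pool with the percentile scaling. For vasectomized-mated over not mated, the log2 ratios were 2.66 for Ccl3 and 3.49 for Ccl4. Spike-in scaling moves such ratios by -2.66, which leaves Ccl3 level with not mated and Ccl4 above it.

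Markers of other cells also differed between the pools. Of the 14 T cell markers, 11 were detected in the not mated, 10 in the vasectomized-mated and 9 in the normal-mated pool. Their summed scaled signals were 1875, 2636 and 1573, of which Lat alone gave 99.5, 1021 and 137. Lat is also in the list of adaptors and kinases above. After normal mating 5 of 11 compared were at least 2-fold lower and 0 higher (median -0.91), beside 13.2% and 9.81% of all genes. After vasectomized mating 3 of 12 were higher and 1 lower (median 0.08), beside 25.8% and 16.5%. Spike-in scaling moves such ratios of genes detected in both pools by -2.66, which turns this median negative. Cd3g gave 79.8, 55.2 and 13.0, Cd8a and Trat1 were detected in the not mated pool alone, Cd3e was nearly equal in all at 24.5, 23.8 and 24.7, and Cd28 and Themis were not detected in any. Of 10 mast cell genes, 9 were on the array and 7 detected in each pool, with sums of 2630, 1231 and 1491. Of the 7 mast cell genes compared, 5 were lower after normal mating and 4 after vasectomized mating, beside 13.2% and 16.5% of all genes. Between the mated pools 4 were lower and 1 higher in the normal-mated pool, beside 28.0% and 14.7%. Mcpt4, a mast cell chymase, gave 544, 175 and 67.1, while Ms4a2 and Mcpt8 were not detected. The part of T cells and mast cells in the effector ratios was not tested.

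Of the 14 myeloid markers, 12 were detected in the not mated pool and 14 in each mated pool, with sums of 55144, 263146 and 186969. Of these, 8 of 14 were higher after normal and 11 of 14 after vasectomized mating, beside 9.81% and 25.8% of all genes. Among 8 genes of all leukocytes the sums were 7497, 23859 and 5897. After vasectomized mating 4 of the 8 were higher and 1 lower, beside 25.8% and 16.5%. Some members, such as Tyrobp and Cd244, are also genes of myeloid cells, and the part of those cells in their values was not tested. The epithelial genes had sums of 556142, 547868 and 817943.

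Of all 17180 other genes above background on all 3 arrays, those whose levels across the pools were nearest to the mean of Prf1, Gzma, Gzmb and Nkg7 included Cytl1, Crtac1, Cma1 and Smoc1, at distances of 0.08 to 0.15 on the log2 scale over the 3 centred values. Cma1, a mast cell chymase, had scaled signals of 1074, 425 and 173. This likeness rests on 3 arrays and says nothing of shared function.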

How the data were processed

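The deposited intensity values are processed signals of Agilent Feature Extraction, which per the file headers are background-corrected, array by array, without any scaling among the arrays. That program is given as version 9.5.3 in the submitters' processing notes but as 10.5.1.1 in the headers. Spots with outlier flags were left out, spots of a probe were averaged on the log2 scale, and each array was scaled here by its 75th percentile over non-control probes. Ratios were called at 2-fold with no test, since each group is 1 array of 1 pool. A gene takes its brightest probe, and genes above background on neither array were not compared; nor were those whose bound came to less than 1-fold. R 4.3.3 with limma 3.58.1 and data.table (version 1.17.8), and Python 3.11.15 with numpy 2.4.6, pandas 2.3.3, Biopython 1.88 (alignments) and matplotlib 3.10.9 were used, and the counting was tested on simulated data. Alternatives were quantile, cyclic loess, median and spike-in scaling, normexp with an offset of 50, other filters, probe rules and thresholds.

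Probes were named through RefSeq's gene list for GRCm38.p6, and 15 member probes without a match kept the array's name. Members and lists were chosen with earlier results of these data known. All detected members may be named, with up to 4 genes per list of largest absolute ratio for normal-mated over not mated, known partners of members, and the 5 genes of most similar pattern, 1 of which has no gene symbol and is not named. Probe and protein sequences were not used here.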

Additional observations from a re-analysis of the deposited data

How the results depend on the processing

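Each group is 1 array, so leaving out a replicate was not possible. The software's error, the spread between spots of a probe and the spread between probes are the only measures of precision. For the 245 probes printed 10 times, the median standard deviation between spots was 0.058 on the not mated array on the log2 scale. It was 0.064 on the vasectomized-mated and 0.054 on the normal-mated array. No paired analysis was possible because each group holds 1 array and no result comes from a test. Probes of the same gene differed by over 2-fold in 11.9% of genes for normal-mated over not mated, 51.9% for vasectomized-mated over not mated and 49.98% for normal-mated over vasectomized-mated. By the spread between probes, ratios that involve the vasectomized-mated array are therefore the less precise.

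For normal-mated over not mated, the 21 lower members became 7 with normexp correction, and the 1 higher member became 3 with quantile, 4 with cyclic loess and 3 with median scaling, 2 with no filter on dim probes, and 0 with spike-in scaling, normexp or the mean of a gene's probes. The median of -1.53 became -1.24 with quantile scaling, -1.99 with spike-in scaling, -0.48 with normexp, -1.32 over genes detected on both arrays and -1.28 with no filter. For vasectomized-mated over not mated, spike-in scaling gave 0 higher and 20 lower members in place of 20 and 5, and a median of -1.36 in place of 1.29, normexp gave 1 lower, and no filter gave a median of 0.60. For normal-mated over vasectomized-mated, spike-in scaling gave 5 higher and 5 lower in place of 0 and 31, and a median of -0.077 in place of -2.16, which was -1.41 with normexp. Spike-in scaling adds the same constant to every gene of an array. With it, the median of all genes compared was -0.53 for normal-mated over not mated and -2.54 for vasectomized-mated over not mated. For normal-mated over vasectomized-mated it was 1.92. The cause of the other changes was not tested.

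Among members at least 2-fold different, those whose ratio changed sign for vasectomized-mated over not mated with spike-in scaling were Hcst (-0.069), Klra16 (-0.17), Klra2 (-1.20), Klra20 (-0.61), Klra22 (-1.53), Klra7 (-1.05), Klra9 (-0.24), Klrb1a (-0.86), Klrb1b (-1.13), Klrc1 (-0.49), Klrd1 (-0.55) and Tyrobp (-1.15), and with normexp Prf1 (0.24). For normal-mated over vasectomized-mated with spike-in scaling they were Cd244 (0.55), Gzmc (0.83), Klra10 (0.44), Klra2 (0.26), Klra23 (0.076), Klra8 (0.0096), Klrb1c (0.27), Klrg1 (0.30), Nkg7 (0.91), Prf1 (1.09) and Tyrobp (0.63). For normal-mated over not mated, no member at least 2-fold different changed sign under these settings. Members within 2-fold also changed sign with spike-in scaling, such as Gzma (0.56 to -2.10) for vasectomized-mated over not mated and Gzmb (-0.94 to 1.26) for normal-mated over vasectomized-mated.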

Other observations

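Klrg2, a lectin-like gene that the array lists under an older clone name and that the member rule therefore did not take, was detected in all 3 pools. Its signals, before scaling and so not comparable between arrays, were 74.4 in the not mated, 12.6 in the vasectomized-mated and 41.8 in the normal-mated pool. Klrb1, likewise under an older name, was not detected in any pool.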
